A study of Mus musculus with 2 samples.

Results

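The immediate early genes of the AP-1 and Egr families were followed through the cells of the healing mouse skull as 10 genes, Fos, Fosb, Jun, Junb, Jund, Egr1, Egr2, Egr3, Atf3 and Ier2. They were taken by symbol out of 32285 genes in the count tables, and each symbol matched 1 gene. The measurement was droplet single-cell RNA sequencing, in which each captured transcript is counted once by a unique molecular identifier (UMI). Primary cells came from the calvaria of C57BL/6 mice, collected 7 days after a defect was made in the frontal bone. The GA library came from mice injected intraperitoneally with 100 µL of gambogic amide at 1.2 mg/kg in 10% DMSO, a small molecule. The control library came from mice injected with 100 µL of 10% DMSO alone, so that DMSO and the injury were common to both groups. Injections began 24 h before injury and were repeated daily, while the study's methods state a higher dose and a longer course than the labels. The study describes the mice as male and 2 months old. Each condition was 1 library made from the pooled cells of 5 mice, so no animal can be followed, and animal, pool, digestion and treatment cannot be told apart. There is therefore no test between conditions, and every interval below is an exact 95% interval for counting error only.

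Immediate early genes are transcribed within minutes of a stimulus, without new protein synthesis, and their mRNAs are short-lived. The Fos and Jun proteins pair through leucine zippers to form the AP-1 transcription factor, with Atf3 as a further bZIP partner, while the Egr proteins are zinc finger factors that bind GC-rich sites and Ier2 encodes a small nuclear protein. Growth factor receptors, through MAP kinases and the serum response factor, are among the best known inducers. Mechanical injury, cytokines, and the enzymes and warmth used to free cells from tissue induce the same genes. In bone, AP-1 factors are known from osteoblast and osteoclast differentiation.

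The 10 genes lie on 8 chromosomes of the mouse genome (GRCm38, GENCODE vM21), with Junb, Jund and Ier2 all on chromosome 8. Promoter windows in a RefSeq table for GRCm38.p6 matched 7 of the 10 genes (Fos, Fosb, Jun, Junb, Jund, Egr2 and Atf3). The Jund window, which ended at base 70697738 of chromosome 8, lay apart from the GENCODE start of the gene at 70698949. The 250 bases before the transcript start were searched on both strands for the sites through which these genes are known to be induced and to act. The CArG box, bound by serum response factor, was found for 1 of the 7 genes, Egr2, and for 1.62% of all 27025 genes with a window. The full cyclic AMP response element, TGACGTCA, was found for 0 of the 7 and for 1.77% of all genes. Its core, TGACG, searched after the full element gave no match, was found for 5 of the 7 (Fos, Fosb, Junb, Egr2 and Atf3) and for 19.8% of all genes. The AP-1 site TGANTCA was found for 0 of the 7 and 7.82% of all genes, and the Egr site GCGNGGGCG for 1 of the 7, Fosb, and 5.33% of all genes. A match is a description of letters, and a missing one says only that the letters are not in this window. Of the 10 genes, 4 are printed below from the windows that hold a match. Fos and Fosb were chosen because they were past the fold in several mesenchymal subsets, and Egr2 because it was the only gene with a CArG box. Junb was chosen because it stayed within the fold in every mesenchymal subset. Egr2 had more than 1 window, and a window not printed here holds another CArG box. Capitals mark the matches, and each sequence reads 5′ to 3′ on the strand of the gene.
Fos, chr12:85473640-85473889, plus strand: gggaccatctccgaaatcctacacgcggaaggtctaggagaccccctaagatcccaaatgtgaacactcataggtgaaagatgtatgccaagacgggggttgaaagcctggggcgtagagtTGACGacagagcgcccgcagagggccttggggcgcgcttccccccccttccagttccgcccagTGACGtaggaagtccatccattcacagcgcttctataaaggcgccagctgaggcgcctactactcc
Fosb, chr7:19310046-19310295, minus strand: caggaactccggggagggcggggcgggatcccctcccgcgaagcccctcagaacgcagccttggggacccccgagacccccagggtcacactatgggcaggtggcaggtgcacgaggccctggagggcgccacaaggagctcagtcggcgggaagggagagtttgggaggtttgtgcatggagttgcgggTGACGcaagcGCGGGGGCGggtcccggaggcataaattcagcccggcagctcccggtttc
Egr2, chr10:67537619-67537868, plus strand: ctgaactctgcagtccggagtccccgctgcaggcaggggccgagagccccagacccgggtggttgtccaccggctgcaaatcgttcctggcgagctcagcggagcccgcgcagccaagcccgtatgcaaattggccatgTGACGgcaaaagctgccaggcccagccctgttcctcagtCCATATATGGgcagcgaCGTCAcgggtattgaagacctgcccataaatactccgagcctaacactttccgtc
Junb, chr8:84978749-84978998, minus strand: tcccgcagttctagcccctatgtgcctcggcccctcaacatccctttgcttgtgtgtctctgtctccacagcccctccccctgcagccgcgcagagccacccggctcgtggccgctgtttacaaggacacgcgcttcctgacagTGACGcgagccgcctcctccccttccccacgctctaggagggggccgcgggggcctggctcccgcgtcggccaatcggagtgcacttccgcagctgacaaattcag
In the Fos window the capitals are a pair of core elements, at 129 and 66 bases before the start. In the Fosb window they are a core element at 60 bases and the Egr site at 50 bases before the start. The Egr2 window holds a CArG box at 72 bases between core elements at 111 and 55 bases, and the Junb window a core element at 106 bases before the start.

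After filtering, 8380 GA cells and 7553 control cells were kept, with medians of 10968.5 and 16299 UMIs per cell and of 1.08% and 2.82% mitochondrial UMIs. The cells were grouped into 36 clusters without use of the 10 genes, and 32 of the clusters were given a class from marker genes. The names are rebuilt here and may differ from those of the study, and 18 barcodes among the kept cells occur in both libraries. At least 7 markers of each class but that of granule progenitor-like cells (6 of 6) were 2-fold or more above the other cells in both libraries. Transcripts of neutrophils, counted over 7 genes as a sign of free RNA, differed between the libraries outside the neutrophils, with 2001 CPM (UMIs per 1000000 UMIs of the cells) in GA and 267 CPM in control cells of the mesenchymal lineage. Levels below are CPM of a class, and differences are log2 ratios of the GA over the control CPM. A gene is counted as past the fold at a log2 ratio of at least 0.5 in either direction, among genes with at least 200 UMIs in the class over both libraries. The share of all genes past the fold was counted for classes and subsets, not for single clusters.

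Each of the 10 genes had its own distribution over the 14 classes with at least 50 cells in a library. Fos, the founding AP-1 subunit, was lowest in B-like cells, at 29.7 CPM in GA and 35.4 CPM in control. It was highest in endothelial-like cells in GA (1939 CPM) and in mature neutrophil-like cells in control (1595 CPM). In neither library did the counting interval of the highest class reach the next. The endothelial-like value rested on 51 GA cells, and by the mean of per-cell CPM mature neutrophil-like cells were highest in both libraries. Junb, another Jun family subunit, was highest in mature neutrophil-like cells in both libraries, at 2566 and 2555 CPM, followed by macrophage-like cells at 1800 and 1708 CPM. Its lowest class was the B-like class, at 132 and 152 CPM. Ier2 was also highest in mature neutrophil-like cells, at 439 CPM in GA and 495 CPM in control.

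**Figure D1:**
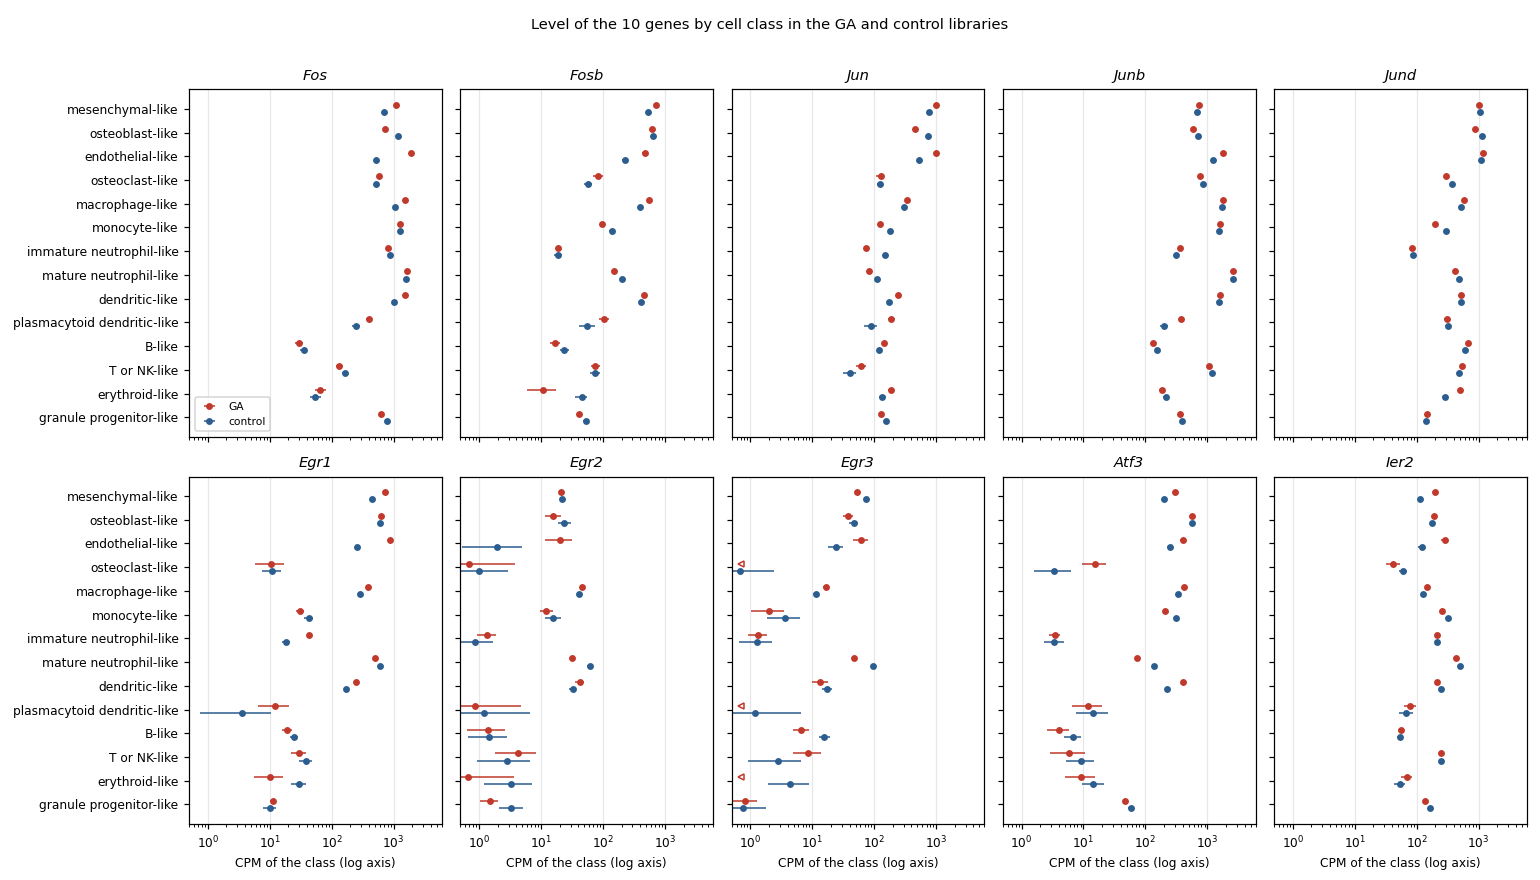
Level of each of the 10 genes, in CPM on a log axis, in the 14 cell classes of the GA (red) and control (blue) libraries. Points are the UMIs summed over the cells of a class, bars are exact 95% Poisson intervals, and open triangles at the left edge mark a count of 0. Junb peaks in mature neutrophil-like cells (2566 CPM in GA), while Fosb peaks in the mesenchymal-like and osteoblast-like classes.

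Fosb and Jun followed another order. Fosb was highest in mesenchymal-like cells in GA (728 CPM) and in osteoblast-like cells in control (640 CPM), against 19.1 and 18.8 CPM in immature neutrophil-like cells. Jun stood at 986 and 756 CPM in mesenchymal-like cells and at 62.0 and 40.7 CPM in T or NK-like cells, its lowest class. The intervals of endothelial-like and mesenchymal-like cells overlapped in GA and those of mesenchymal-like and osteoblast-like cells in control. Jund, the Jun family member that is expressed most steadily in unstimulated cells, was at 1018 and 1039 CPM in mesenchymal-like cells, and was lowest in immature neutrophil-like cells at 82.8 and 85.8 CPM.
Atf3, a stress-induced repressor, was highest in osteoblast-like cells in both libraries, at 571 and 571 CPM, and stood at 3.45 and 3.39 CPM in immature neutrophil-like cells. Egr1 was at 723 and 449 CPM in mesenchymal-like cells, 502 and 600 CPM in mature neutrophil-like cells and 18.9 and 24.8 CPM in B-like cells. Egr2, known from macrophages and Schwann cells, reached 46.2 CPM in macrophage-like cells in GA, with an interval that overlapped that of dendritic-like cells, and 60.7 CPM in mature neutrophil-like cells in control. Egr3 was at 95.3 CPM in mature neutrophil-like cells of the control library, its highest class there. In all, 3 of the 10 genes (Junb, Atf3 and Ier2) had the same highest class in both libraries.

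In the mesenchymal lineage, which gives rise to the bone-forming cells of the defect, most of the 10 genes were more abundant in GA. The lineage comprised the mesenchymal-like and osteoblast-like classes, with 867 GA and 1731 control cells of similar depth (medians of 50322 and 50970 UMIs). Of the 10 genes, 4 were past the fold in the higher direction, against 5.57% of the 12811 genes with enough UMIs, and 1 in the lower direction, against 6.78%. In the mesenchymal-like class alone the counts were also 4 and 1, against 5.43% and 7%. The median log2 ratio of the 10 in the lineage was 0.38, while that of all these genes was −0.02. Among the Fos family, Fos stood at 1076 CPM in GA and 703 CPM in control, a log2 ratio of 0.61 (interval 0.60 to 0.63). Fosb was at 721 and 533 CPM, a log2 ratio of 0.44. The Jun family was graded, with Jun at 951 and 755 CPM (log2 ratio 0.33), Junb at 716 and 671 CPM (0.09) and Jund at 1008 and 1042 CPM (−0.05).
The Egr genes diverged. Egr1 was at 717 CPM in GA and 454 CPM in control, a log2 ratio of 0.66 (0.64 to 0.68). Egr2 was at 20.6 and 21.7 CPM, with an interval that held 0 (−0.18 to 0.04). Egr3 was lower in GA, at 51.6 against 73.7 CPM, a log2 ratio of −0.51 (−0.58 to −0.45). Atf3 was at 319 and 209 CPM, a log2 ratio of 0.61. Ier2 had the highest log2 ratio of the 10, 0.78 (0.74 to 0.82), at 196 and 114 CPM. Leaving out the 5 cells of each library with the most UMIs of a gene gave 0.61 for Fos, 0.65 for Egr1, 0.60 for Atf3 and 0.78 for Ier2.
These ratios sum over subsets that the libraries held in unequal numbers. With each of the 4 named subsets of at least 50 cells per library given the same weight, a choice made after seeing the data, the median was 0.31 and 1 gene, Ier2 (0.62), stayed past the fold, with Egr1 at 0.50 just below it, Fos at 0.44 and Egr3 at −0.24. Neutrophil RNA at the level of the 7 neutrophil transcripts, in the proportions of mature neutrophil-like cells, would amount to 13.8 CPM of Fos, 4.26 CPM of Egr1 and 3.72 CPM of Ier2 in the GA lineage cells, or 1.28%, 0.594% and 1.90% of their levels. The 12 heat shock genes, which handling can induce, summed to 5168 CPM in GA and 5753 CPM in control, and 0 of the 12 had a higher level in GA. In Stem 2-like cells, however, 10 of the 12 were higher in GA, with a median log2 ratio of 0.17 and sums of 4539 and 4061 CPM. Of these, 3 were past the fold upward, against 8.06% of all genes there. Markers of keratinocytes moved with the lineage as well. The 6 of them summed to 279 and 99.2 CPM in the lineage, to 404 and 153 CPM in Stem 2-like cells and to 426 and 193 CPM in Stem 1-like cells, and in the lineage 2 of the 6 were at 0 in GA and 1 in control. The part of tissue dissociation or of keratinocyte RNA in the differences of the 10 genes was not tested.

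The subsets of the lineage, named from the marker genes the study gives for its own subsets, were not alike. In Stem 2-like cells (261 GA and 417 control cells, in clusters led by Pi16, by Mmp3 and by Cxcl3) 6 of the 10 genes were past the fold in the higher direction, against 8.06% of 9165 genes. Fos was at 1460 and 800 CPM there (log2 ratio 0.87), Jun at 1180 and 630 CPM (0.91), Egr1 at 938 and 463 CPM (1.02) and Ier2 at 231 and 112 CPM (1.05). The clusters differed, with Fos at 0.45 in that led by Pi16, 0.87 in that led by Mmp3 and 1.31 in that led by Cxcl3. In the Pi16 cluster Jun (0.54), Egr1 (0.65) and Ier2 (0.72) were past the fold upward, while Fosb, Junb, Jund, Egr2 and Egr3 were below 0. Over the whole subset Atf3 and Egr2 were also among the 6 genes. Egr2 was at −0.44 in the Pi16 cluster but at 1.05 in the Mmp3 cluster (37.6 and 18.2 CPM) and 1.07 in the Cxcl3 cluster (13.5 and 6.43 CPM). Atf3 was at 0.28, 0.74 and 1.13 in the same order. Egr3 went the other way in the whole subset, at 36.6 and 56.8 CPM (−0.64), the 1 gene past the fold in the lower direction, against 5.13%. Its log2 ratio was −0.96 in the cluster led by Mmp3. In those led by Pi16 and Cxcl3 it was −0.28 and −0.23, with intervals that held 0. Jun was thus past the fold in this subset, but not in Stem 1-like cells, where it was at 708 and 549 CPM (0.37).
In Stem 1-like cells (233 and 313 cells) 3 genes were past the fold, Fosb (320 and 189 CPM, log2 ratio 0.76), Ier2 (0.66) and Fos (0.60), against 4.85% of genes, and 0 in the lower direction, against 5.84%. The subset joined a cluster led by Adamts19 and Dmkn (187 and 205 cells) and a cluster led by Hist1h2ap and Ube2c (46 and 108 cells). Fos was at 0.41 in the first and 0.87 in the second, Ier2 at 0.61 and 0.47, and Fosb at 0.70 and 0.86. In multilineage progenitor-like cells (168 and 422 cells) the genes past the fold upward were Fos, at 1314 and 799 CPM, and Fosb, at 978 and 595 CPM. Both had a log2 ratio of 0.72, against 4.37% of genes past the fold, and 0 genes were lower by the fold, against 3.23%. Egr3 had a log2 ratio of 0.38 in this subset, the only 1 of the 5 named subsets in which it was above 0.

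**Figure D2:**
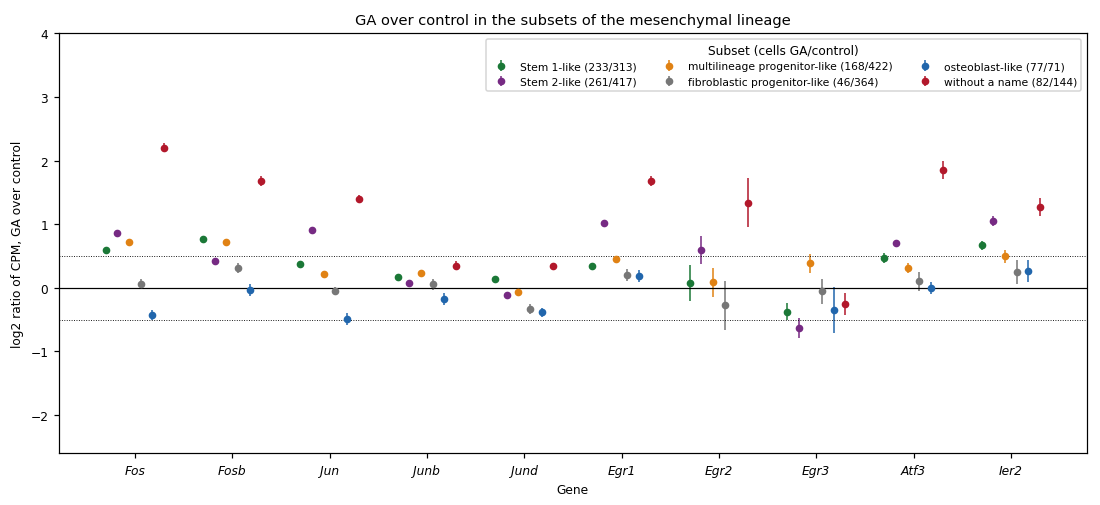
Log2 ratio of CPM, GA over control, of the 10 genes in the subsets of the mesenchymal lineage, with the cells per library in the legend. Bars are exact 95% intervals for counting error, dotted lines mark 0.5 in both directions, and Egr2 in the osteoblast-like subset had fewer than 200 UMIs and is left out. The subset without a name is highest for every gene but Egr3 (2.20 for Fos) and the osteoblast-like subset is below 0 for 7 of its 9 genes.

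The osteoblast-like and fibroblastic progenitor-like groups differed from the stem-like subsets. In the osteoblast-like class (76 and 72 cells), Fos was at 731 and 1161 CPM, a log2 ratio of −0.67 (−0.74 to −0.59), and Jun at 460 and 736 CPM, a log2 ratio of −0.68. These were the 2 genes past the fold in the lower direction among 9 with enough UMIs, against 11.3% of 3252 genes, and 0 were past it in the higher direction, against 4%. Egr1 (631 and 602 CPM) and Atf3 (571 and 571 CPM) were close to the same level in both libraries. The osteoblast-like subset of the second clustering (77 and 71 cells) had 0 of 9 genes past the fold in either direction, against 3.91% higher and 10.1% lower. Fos was at 832 and 1120 CPM (−0.43) there, and Jun at 501 and 707 CPM was just inside the fold. Without the 5 highest cells of each library for the gene, Fos was at −0.76 and Jun at −0.54 in this subset. In fibroblastic progenitor-like cells, of which GA had 46 and control 364, 0 of the 10 were past the fold in either direction, against 10.5% of genes higher and 7.34% lower. Fos was at 1059 and 1016 CPM, but the GA value rested on few cells, and leaving out the 5 highest cells of each library changed its log2 ratio from 0.06 to −0.54. Egr3 had its highest subset level here, at 146 and 152 CPM, but its clusters differed. It was at 212 and 154 CPM (0.46) in the cluster led by Eln (25 GA and 267 control cells). In the cluster led by Slc47a1 (20 and 71 cells) it was at 28.6 and 124 CPM (−2.11). Jund was at −1.09 in the Slc47a1 cluster, and Ier2 at 0.77, or −0.27 without the 5 highest cells of each library.
The widest difference was in the mesenchymal subset left without a name (82 and 144 cells). Fos was at 1023 and 223 CPM, a log2 ratio of 2.20 (2.13 to 2.27). Fosb was at 616 and 192 CPM (1.68), Jun at 1067 and 404 CPM (1.40), Egr1 at 750 and 234 CPM (1.68) and Atf3 at 234 and 64.6 CPM (1.86). In all, 7 of the 10 were past the fold in the higher direction, against 7.2% of 7566 genes, 0 were past it in the lower direction, against 7.86%, and the median was 1.37. The subset joined a cluster of 64 GA and 141 control cells led by Brinp3, Actg2, Cdkn2a, Tnc and Tagln, of which Actg2 and Tagln encode proteins of contractile cells, and a small cluster of 18 GA and 3 control cells led by S100a8 and S100a9. In the first cluster alone Fos was at 1132 and 215 CPM, a log2 ratio of 2.40, or 2.76 without the 5 highest cells of each library. The 7 neutrophil transcripts summed to 10619 CPM in GA and 893 CPM in control over the whole subset, which in the proportions of neutrophils would amount to 73.2 CPM of Fos, 7.16% of its GA level, and 115 CPM of Junb, 21.2% of its GA level. The 12 heat shock genes had a median log2 ratio of 0.40 here, with 11 of the 12 higher in GA. Without this subset the lineage still had 4 genes past the fold, with a median of 0.30.

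Endothelial-like cells, the class of cells that line vessels, were few (51 and 47) but differed in the same direction. Of 8 genes with enough UMIs, 7 were past the fold in the higher direction, against 8.38% of 2792 genes, and 0 in the lower direction, against 8.13%. Fos was at 1939 CPM in GA and 510 CPM in control, a log2 ratio of 1.93 (1.82 to 2.04). Egr1 was at 888 and 260 CPM (1.77), Ier2 at 285 and 120 CPM (1.24) and Fosb at 472 and 224 CPM (1.08). Jun (0.91), Atf3 (0.69) and Junb (0.56) were also past the fold, and Jund was at 1178 and 1101 CPM (0.10). The libraries differed in depth here, with medians of 10113 and 34230 UMIs per cell, and 22 of the 51 GA cells held under 2000 UMIs. Much of the Fos signal came from few cells, 1037 of 1754 in GA and 744 of 1054 in control from the 5 highest of each, and without these the log2 ratio was 2.73. Without the 5 highest cells of each library for the gene, Atf3 was at 1.16, Fosb at 0.64 and Jund at −0.03. The heat shock genes had a median log2 ratio of 0.40 in this class, with Hspa1b at 523 and 257 CPM, and the 7 neutrophil transcripts summed to 5587 and 201 CPM, enough in neutrophil proportions for 1.99% of the GA level of Fos. The part of either in the difference was not tested.

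**Figure D3:**
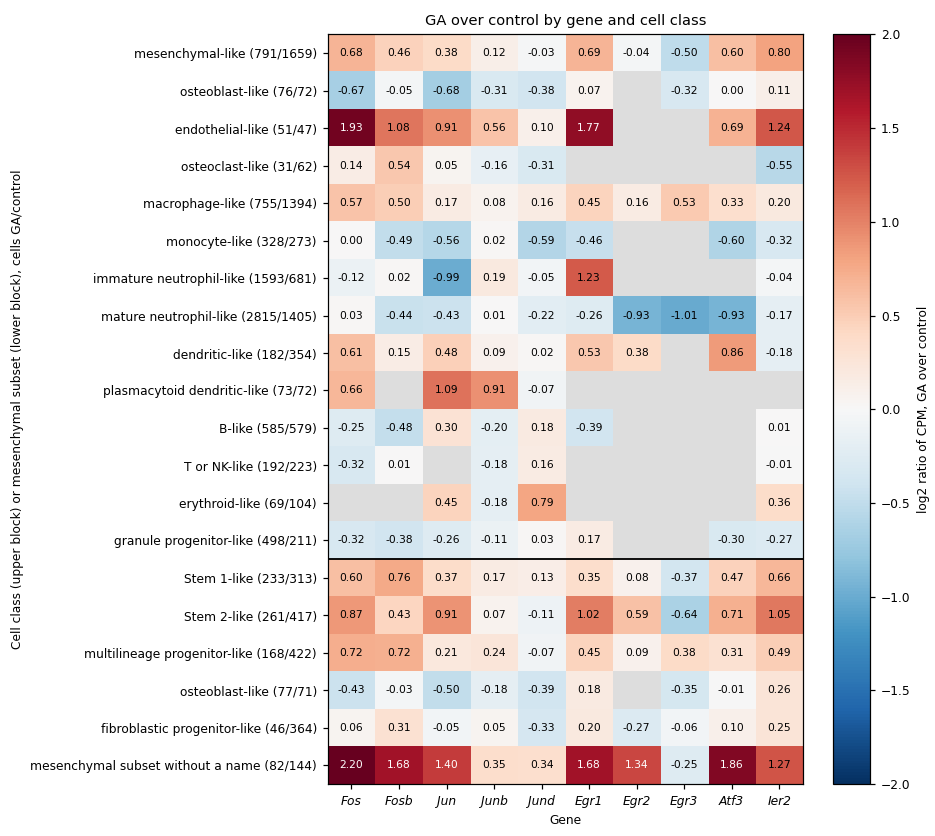
Log2 ratio of CPM, GA over control, for the 10 genes (columns) in 14 cell classes (upper block) and 6 mesenchymal subsets (lower block), with the cells per library in parentheses and the ratio printed in each field. Red is higher in GA, blue is lower, and grey fields had under 200 UMIs in both libraries together. Red fields lie in the endothelial-like (1.93 for Fos) and macrophage-like rows, in the Stem 1-like and Stem 2-like rows and in the mesenchymal subset without a name. Blue fields lie in the monocyte-like and mature neutrophil-like rows (−1.01 for Egr3) and in the osteoblast-like class (−0.67 for Fos). Egr3 is also blue in the Stem 2-like row.

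Macrophage-like cells (755 and 1394 cells, medians of 21137 and 23126.5 UMIs) had all 10 genes above control, but 2 past the fold, Fos and Egr3, against 4.66% of 9654 genes, and 0 in the lower direction, against 2.45%. Fos was at 1538 and 1037 CPM, a log2 ratio of 0.57 (0.55 to 0.59). Fosb was at 560 and 397 CPM and Egr1 at 391 and 287 CPM (0.45). Egr3 was at 16.7 and 11.6 CPM, a log2 ratio of 0.53 that was 0.24 without the 5 highest cells of each library. The median of the 10 was 0.26, and that of all genes 0.05. The 12 heat shock genes had a median log2 ratio of −0.12, with 3 of the 12 higher in GA. Past the fold were 0 upward and 2 downward, against 4.66% and 2.45% of all genes. These 2 were Hspa1a, at 71.8 and 204 CPM, and Hspa1b, at 42.7 and 116 CPM.
The clusters of the class differed. In cluster 5 (285 and 562 cells), led by Apoe, Ms4a7 and the complement genes C1qa, C1qb and C1qc, Fos was at 1577 and 839 CPM (log2 ratio 0.91) and Egr1 at 658 and 337 CPM (0.96). Egr3 was at 43.4 and 20.6 CPM there (1.07), and Ier2 at 172 and 110 CPM (0.65). In cluster 0 (470 and 832 cells), led by Arg1, Cd36 and Mmp12, Fos was at 1517 and 1156 CPM (0.39), while Egr1 was at 244 and 257 CPM (−0.07) and Ier2 at 130 and 136 CPM (−0.07).

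Dendritic-like and plasmacytoid dendritic-like cells were similar in direction, while osteoclast-like cells had 3 genes above control and 3 below. Dendritic-like cells (182 and 354) had 3 of 9 genes past the fold in the higher direction, against 4.68% of 5812 genes, and 0 in the lower direction, against 4.71%. These were Atf3, at 405 and 224 CPM (0.86), Fos, at 1528 and 1003 CPM (0.61), and Egr1, at 246 and 170 CPM (0.53). In plasmacytoid dendritic-like cells (73 and 72), 3 of 4 genes were past it upward, against 9.22% of 1931 genes, and 0 downward, against 6.32%, with Jun at 189 and 88.8 CPM (1.09) and Junb at 380 and 203 CPM (0.91). Fos was the other, at 393 and 248 CPM (0.66), a log2 ratio of 0.30 without the 5 highest cells of each library. Osteoclast-like cells (31 and 62) had Fosb past the fold upward (83.6 and 57.6 CPM, 0.54) and Ier2 downward (41.5 and 60.6 CPM, −0.55), against 4.05% and 3.42% of genes. The Fosb ratio was −0.08 without the 5 highest cells of each library. Fos, which osteoclast formation needs, was at 579 and 525 CPM there.

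Monocyte-like and mature neutrophil-like cells went against this pattern, while immature neutrophil-like cells had 1 gene past the fold in each direction. In monocyte-like cells (328 and 273) 3 of 8 genes were past the fold in the lower direction, against 6.39% of 5708 genes, and 0 in the higher direction, against 5.87%. Atf3 was at 209 CPM in GA and 316 CPM in control (−0.60), Jund at 196 and 295 CPM (−0.59) and Jun at 122 and 181 CPM (−0.56). Fos (1288 and 1286 CPM) and Junb (1572 and 1552 CPM) were level. The count depended on how the class was drawn, from 0 without batch correction to 6 at a Leiden resolution of 2.
Mature neutrophil-like cells (2815 and 1405) had 0 genes past the fold in the higher direction, against 1.88% of 5643 genes, and 3 in the lower direction, against 9.5%. Egr3 was at 47.3 CPM in GA and 95.3 CPM in control, a log2 ratio of −1.01 (−1.17 to −0.86). Egr2 was at 31.9 and 60.7 CPM and Atf3 at 72.8 and 139 CPM, both with a log2 ratio of −0.93. Fos (1627 and 1595 CPM), Junb (2566 and 2555 CPM), Ier2 (439 and 495 CPM) and Jund (417 and 484 CPM) were closer to control. The median of the 10 was −0.34 and that of all genes −0.13. Heat shock genes were also lower, with 0 of the 5 with enough UMIs above control and a median of −0.18.
Cluster 2 (658 and 301 cells), led by Cass4, Il1r2, Il1b and with Dusp1 and Ptgs2 among its leading genes, had the highest levels of the class, with Fos at 3727 and 3576 CPM and Junb at 4895 and 4804 CPM. Egr1 was at 1742 and 2481 CPM (−0.51) in this cluster, Egr2 at 128 and 291 CPM (−1.18) and Egr3 at 183 and 451 CPM (−1.30). Without cluster 2, the median of the 10 in the class was −0.14, beside −0.13 for all genes of the whole class. There 2 genes were past the fold downward, and the share over all genes without cluster 2 was not counted. Atf3 had at least 200 UMIs in 3 of the 5 clusters of the class, with log2 ratios of −1.19, −1.07 and −0.56.
Immature neutrophil-like cells (1593 and 681) had Jun past the fold downward, at 74.8 and 148 CPM (−0.99), and Egr1 upward, at 42.3 and 18.1 CPM (1.23), against 5.16% and 1.38% of 7248 genes. Their Fos (807 and 877 CPM) and Ier2 (210 and 215 CPM) were near control.

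In lymphoid, erythroid and granule progenitor-like cells 1 gene in 1 class was past the fold. Of 7 genes with enough UMIs in B-like cells (585 and 579), 0 were past it in either direction, against 0.925% of genes higher and 0.896% lower, with Jund at 677 and 596 CPM (0.18). T or NK-like cells (192 and 223) had 0 of 5 past it, against 1.36% and 3.78%, with Junb at 1047 and 1187 CPM (−0.18). Granule progenitor-like cells (498 and 211), which are myeloid, had 0 of 8 past it, against 3.11% and 3.59%. Of these 8 genes 6 were below control, with a median log2 ratio of −0.27 over the 8 and of 0.002 over all genes. The class joined cluster 14, led by F13a1 and Ass1, and cluster 24 (159 and 79 cells), led by Elane, Prtn3 and Mpo. In cluster 24 Fos (−0.87) and Jun (−1.28) were past the fold downward, their lowest ratios in any cluster with enough UMIs. In erythroid-like cells (69 and 104) Jund was past it upward, at 494 and 285 CPM (0.79), against 5.37% of genes, and 0 of 4 genes downward, against 5.45%. Over all kept cells, where class sizes mix with levels, Egr3 (−0.96) and Jund (−0.53) were past the fold downward and 0 genes upward, against 22.2% and 10.9% of 15319 genes.

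The number of the 10 genes seen in a cell gave a measure that rests on many cells alike. Each cell was thinned to 2000 UMIs, and cells with fewer were left out (158 GA and 200 control cells). In the mesenchymal lineage 52.7% of GA and 38.7% of control cells then held a UMI of at least 5 of the 10 genes. The share was 71.6% and 39.1% in Stem 2-like cells and 56.1% and 17.4% in the subset without a name. It was also larger in GA in Stem 1-like cells (41.6% and 29.7%) and multilineage progenitor-like cells (45.8% and 38.9%). In the osteoblast-like subset it was smaller in GA, at 40% and 48.6%, as in fibroblastic progenitor-like cells, at 41.3% and 52.5%. It was 45.5% and 34.6% in macrophage-like cells, 26.0% and 28.0% in mature neutrophil-like cells, and 12.8% and 19.9% in monocyte-like cells. In erythroid-like cells, taken as a class with little of these genes, it was 0% (0 of 62 cells, with an interval up to 5.78%) and 2.20%, and in B-like cells 1.54% and 1.91%.

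**Figure D4:**
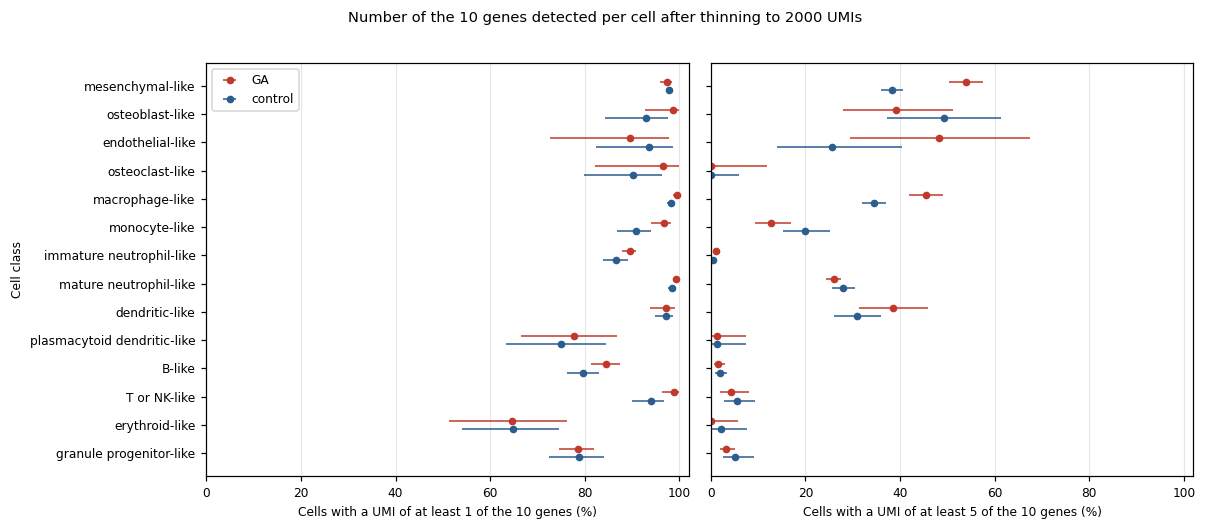
Share of cells with a UMI of at least 1 (left) and at least 5 (right) of the 10 genes, in percent, by class, after each cell was thinned to 2000 UMIs, with exact 95% Clopper-Pearson intervals (GA red, control blue). The right panel separates the mesenchymal-like class (54.0% of GA and 38.3% of control cells) from the erythroid-like and osteoclast-like classes near 0.

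For single genes, a Fos UMI was found in 56.2% of GA and 40.5% of control cells of the mesenchymal lineage, a Jun UMI in 65.2% and 54.9% and an Ier2 UMI in 28.3% and 19.0%. The erythroid-like shares were 1.61% and 5.49% for Fos. Before thinning the lineage, with more UMIs per cell, had 5 of the 10 genes with a larger share in GA, and after it 7. Within mesenchymal-like cells, the strongest relation between a pair of the genes was that of Fos and Jun, with a Pearson correlation of thinned log counts of 0.58 over 791 GA cells and 0.64 over 1659 control cells. All 36 pairs had a median of 0.22 and 0.24. In mature neutrophil-like cells the strongest pair was Junb and Egr1 in GA (0.44 over 2786 cells, against 0.42 in control) and Egr1 and Egr3 in control (0.49 over 1379 cells, against 0.37 in GA). These are descriptions, since the cells of a library share its pool and the counts are sparse.

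The neighbouring genes of the pathway were not all higher in the GA library of the mesenchymal lineage. Over all genes with enough UMIs in the lineage, 5.57% were past the fold upward and 6.78% downward, beside which the counts below are to be read. Among 10 measured AP-1 family and bZIP partner genes, 0 were past the fold upward and 1 downward, Batf (4.61 and 6.98 CPM, −0.60), while Jdp2, a Jun partner, was at 87.5 and 70.1 CPM (0.32). Among 24 other immediate early genes, 18 were above control and 1 was past the fold, Ccn1, a matricellular protein gene, at 282 and 170 CPM (0.73). The orphan receptor gene Nr4a1 followed at 249 and 187 CPM (0.41), and Ccn2 was lowest at 48.1 and 60.0 CPM (−0.32). By subset, 14 of 22 of these genes were past the fold upward in the subset without a name, against 7.2% of all genes. In multilineage progenitor-like cells 7 of 22 were, against 4.37%, and in Stem 1-like cells 5 of 22, against 4.85%. In Stem 2-like cells it was 4 of 22, against 8.06%, and in fibroblastic progenitor-like cells 3 of 23, against 10.5%. The osteoblast-like subset had 4 of 18 in each direction, against 3.91% upward and 10.1% downward. Downward it was 1 in Stem 1-like cells, against 5.84%, and 2 in fibroblastic progenitor-like cells, against 7.34%. It was 0 in Stem 2-like cells, multilineage progenitor-like cells and the subset without a name, against 5.13%, 3.23% and 7.86%. Of 14 feedback genes in the whole lineage, which shut the response down, 2 were past the fold upward and 3 downward. Dusp1, a nuclear MAP kinase phosphatase, was at 425 and 267 CPM (0.67) and Zfp36, which destabilises short-lived mRNAs, at 325 and 212 CPM (0.62). Dusp4 (−0.91), Dusp5 (−0.71) and Dusp6 (−0.69), which act on ERK, were those past it downward. Of 16 upstream factors and kinases 0 were past the fold, with Mapk9 (59.3 and 42.1 CPM, 0.49) highest and Mrtfa (82.4 and 97.3 CPM, −0.24) lowest.
In endothelial-like cells 11 of 19 other immediate early genes were past the fold upward, against 8.38% of all genes, and 0 downward, against 8.13%. They were led by the orphan receptor gene Nr4a3 at 227 and 34.4 CPM (2.72) and Klf2, a flow-responsive factor, at 631 and 215 CPM (1.55). In mature neutrophil-like cells 5 of 18 other immediate early genes were past the fold downward, against 9.5% of all genes, and 0 upward, against 1.88%. Among the 5 were Rhob (−0.74), Gadd45b (−0.71) and Ier3 (−0.71). In macrophage-like cells 1 of 12 feedback genes was past the fold in each direction, against 4.66% of all genes upward and 2.45% downward. These were Dusp1 at 1024 and 689 CPM (0.57) and Dusp4 (−0.68).

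Over 26 sums of a class in a library, the gene whose log2 level was most like the mean of the 10 was Maff, a small Maf factor, with a Pearson correlation of 0.92 among 15309 genes ranked. It was followed by Klf6 (0.90), Ptgs2, which encodes cyclooxygenase-2 (0.88), Bach1 (0.87), Srxn1 (0.87), Phlda1 (0.87), Ndrg1 (0.86), Ier3 (0.86), Rtn4 (0.86) and Kdm6b (0.85). Among the 10 themselves, Egr1 and Egr3 were closest (0.91), followed by Fosb and Atf3 (0.90), while Jund and Ier2 (−0.03) and Fos and Jund (−0.03) were unrelated in level. The points share libraries and differ in depth, and no p-value is attached.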

How the data were processed

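The authors deposited 1 filtered matrix of UMI counts per library, made with Cell Ranger (7.0.1 in the matrix header) on the mm10-2020-A reference named in the study's methods. Sequencing depth was 182949385 UMIs over 9322 barcodes in GA and 214993030 UMIs over 8718 barcodes in control. Cells with 500 to 140000 UMIs, 200 to 9500 genes and at most 15% mitochondrial UMIs were kept. Scrublet marked 0 GA and 39 control barcodes, so the highest doublet scores were removed at 0.8% per 1000 barcodes instead (656 and 540 cells). Pearson residuals of 2000 variable genes, without the 10 genes, other immediate early, feedback and heat shock genes, were reduced to 50 components, joined with Harmony and clustered by Leiden at resolution 1 (scanpy 1.11.5, leidenalg 0.10.2). Clusters were named from marker lists, and cells of the mesenchymal lineage were clustered again. The 10 genes and all lists were chosen with earlier results of these data known.

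For each class and library, the UMIs of a gene were added up. CPM carry exact Poisson intervals, log2 ratios exact conditional binomial intervals and shares Clopper-Pearson intervals, computed with scipy 1.17.1. Counts were also simulated from the Poisson model that the intervals assume. A log2 change of 1 was then recovered past the fold in 100% of 200 genes in the mesenchymal lineage. Intervals covered the true value there for 95.4% of 12811 genes. This checks the computation only, since the simulation left out the uneven spread of real UMIs over cells. No model was fitted, since each condition is 1 library. Named were the 10 genes, genes among the 3 highest and 3 lowest log2 ratios of each other list, and the 10 genes most alike in log2(CPM + 10). A further gene of the rule is not reported here. Other genes are named only as leading genes of clusters. The share of neutrophil RNA was scaled from mature neutrophil-like cells of the same library. Alternatives covered scaling, weighting of cells, filters, clustering, thinning and single high cells.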

Additional observations from a re-analysis of the deposited data

Results flagged for a closer look

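Atf3 had opposite directions in different classes. Its log2 ratio was 0.61 in the mesenchymal lineage, −0.93 in mature neutrophil-like cells and −0.60 in monocyte-like cells, and none of the counting intervals held 0. Fos had a log2 ratio of 0.61 in the mesenchymal lineage as a whole and −0.67 in the osteoblast-like class, which is part of that lineage. In the osteoblast-like subset of the second clustering it was −0.43, inside the fold, and −0.76 without the 5 highest cells of each library. With 1 library per condition these differences between classes were not tested.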

How the results depend on the processing

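No paired analysis was possible because each condition is 1 library, and for the same reason no replicate could be left out. Medians were varied only for the mesenchymal lineage and for endothelial-like, macrophage-like, monocyte-like and mature neutrophil-like cells. Among these, no alternative turned the sign of a median log2 ratio. In the mesenchymal lineage the median log2 ratio of the 10 genes, 0.38, was 0.41 relative to the median of all genes, 0.31 with the mean of per-cell CPM, 0.31 with doublets kept, 0.36 with a mitochondrial limit of 10% and 0.30 at resolution 0.5. It was 0.30 without the subset left without a name and 0.31 with named subsets of equal weight, which left 1 gene past the fold in place of 4. The last pair of alternatives was chosen after seeing the data. In endothelial-like cells the median, 0.99, was 0.79 with per-cell CPM, 0.72 with doublets kept, 0.80 with the 10% limit and 0.64 with classes from each cell's own marker score. In macrophage-like cells it was 0.21 relative to all genes in place of 0.26, and the 2 genes past the fold became 1 relative to all genes, 1 with doublets kept and 4 with the marker score. In monocyte-like cells the median, −0.47, was −0.27 with per-cell CPM, −0.20 without batch correction, −0.76 at resolution 2 and −0.30 with at least 2000 UMIs per cell, and the 3 genes past the fold became 0 without batch correction and 6 at resolution 2. In mature neutrophil-like cells the median, −0.34, was −0.21 relative to all genes and −0.14 without cluster 2, also chosen after seeing the data. With per-cell CPM, 6 genes in place of 3 had the same highest class in both libraries, and without thinning 6 genes in place of 3 were found in a larger share of GA mature neutrophil-like cells. Of 92 alternative values for single genes, 65 moved by less than the average reach of their counting interval to either side and 27 by more. The cause of these shifts was not tested. Depth left 4 of the 10 genes with at least 200 UMIs in plasmacytoid dendritic-like and in erythroid-like cells, 5 in T or NK-like, 6 in osteoclast-like and 8 in endothelial-like cells.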
